A study of Mus musculus with 8 samples.

Results

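The genes described here are 8 members of the common gamma chain cytokine system, taken by symbol from the 32285 genes of the deposited matrices: the ligand genes Il2 and Il15 and the receptor chain genes Il15ra, Il2rb, Il2rg, Il7r, Il4ra and Il21r. The set holds 2 ligands beside the 6 receptor chains that its working name covers. UMIs (unique molecular identifiers, counts of single captured transcripts) were read in barcodes that held 500 UMIs or more from 300 genes or more, with no more than 10% of them mitochondrial. All 8 members were detected in each of the 4 libraries.

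The common gamma chain, encoded by Il2rg, is a signalling subunit that several cytokine receptors share, and each cytokine adds its own chain: Il7r for interleukin 7, Il4ra for interleukin 4, Il21r for interleukin 21 and Il2rb for both interleukin 2 and interleukin 15. The receptors signal through JAK kinases and STAT factors and are known for the growth, survival and differentiation of lymphocytes. Naive and resting memory T cells depend on the Il7r chain, NK cells and memory CD8 T cells on the Il2rb chain, and interleukin 15 is shown to neighbouring cells on the Il15ra chain of myeloid and other cells.

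The samples were leukocytes sorted for CD45.2 from the submandibular gland, a major salivary gland, and from its draining lymph nodes. They came from 4 mice of genotype SS and 4 mice of genotype control, all around 12 weeks old; the labels do not spell out SS or name a strain or allele. The labels list 4 expression samples (SS gland, control gland, SS lymph nodes and control lymph nodes) and 4 matching T cell receptor samples, which were not used here. The sources used here do not say how the mice were pooled, glands were digested with collagenase while lymph nodes were only triturated, and there is 1 sample per group.

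There are 4 expression libraries, C1 to C4, and no label, header or barcode ties any of them to a genotype or a tissue. None was assigned from its content, so no comparison of SS with control or of gland with lymph node is made, and no test is given. The kept barcodes numbered 5616 for C1, 5067 for C2, 8532 for C3 and 5957 for C4, and their median depth was 6224.5, 4939, 8076 and 5203 UMIs, and pairs of libraries shared 31 to 85 barcode sequences. Levels are CPM, a gene's UMIs per 1000000 over all barcodes that a class has in a library, with exact Poisson 95% intervals in parentheses; shares of barcodes carry exact Clopper-Pearson intervals. Both cover counting error only. Barcodes were clustered without the members and their pathway genes, and classes were named from marker genes and are written T-like, NK-like and so on, and a level is given where a library holds at least 50 barcodes of the class unless the smaller number is stated. CPM of different genes depend on transcript length and capture and are not set against each other.

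The T-like class held 603 barcodes for C1, 3338 for C2, 7560 for C3 and 3819 for C4. A T-like barcode was called CD8 with a Cd8a or Cd8b1 UMI and no Cd4 UMI, and CD4 in the reverse case. Barcodes with UMIs of both or of neither are called unassigned, and the plots label those of cluster 10 CD4-CD8-. The make-up of the T-like class differed by library. In C1 41.3% of T-like barcodes were CD4 barcodes of cluster 10, a cluster led by Il17a, and 28.2% were CD8 effector-like. In C2 49.4% were CD8 effector-like and 13.5% CD8 checkpoint-like. In C3 54.4% were CD8 barcodes of cluster 0, led by Gzmm and Ly6c2 and given no state name. In C4 37.1% were CD4 naive-like and 23.5% CD8 naive-like. NK-like barcodes numbered 1409 in C1 and 384 in C2, macrophage-like barcodes 2563 in C1 and 461 in C2, and B-like barcodes 61 for C1, 679 for C3 and 1872 for C4. The C1 macrophages fell mostly in cluster 4 and those of C2 mostly in cluster 9, which has more Cxcl9.

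The members lie at separate places in the genome except for 1 neighbouring pair. In the RefSeq annotation of GRCm38.p6, the mm10 assembly, Il4ra (chr7:125552271-125579474) and Il21r (chr7:125603252-125634397) are both on the plus strand with 23777 bases and no annotated gene between them. Il7r (chr15:9506159-9529941) and Il2rb (chr15:78479256-78511621) share a chromosome but lie far apart. Il2 is at chr3:37120713-37125954, Il15 at chr8:82331624-82403252, Il15ra at chr2:11705172-11733985 and Il2rg at chrX:101264385-101268255. These spans cover the exons, introns and UTRs of each gene.

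The sequences below are the 250 bases before the start that the RefSeq promoter table gives for 3 members, shown for the patterns described afterwards: Il2, carried by few barcodes, Il7r, which differed widely between T subsets, and Il2rg, which differed little between libraries in T-like barcodes. They come from RefSeq for GRCm38.p6, on the minus strand, from chr3:37125955-37126204, chr15:9529877-9530126 and chrX:101268256-101268505, and are written 5′ to 3′ with the start just past the last base. For Il2 and Il2rg this start is the end of the gene span given above, while for Il7r it lies inside the span, so part of the Il7r window is within the annotated gene. Capitals mark matches to 6 motifs searched on both strands.
Il2: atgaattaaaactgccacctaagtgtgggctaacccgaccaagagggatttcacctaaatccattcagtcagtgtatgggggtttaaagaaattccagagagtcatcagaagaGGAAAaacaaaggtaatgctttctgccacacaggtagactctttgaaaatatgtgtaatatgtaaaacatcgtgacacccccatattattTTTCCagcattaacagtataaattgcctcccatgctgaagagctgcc
Il7r: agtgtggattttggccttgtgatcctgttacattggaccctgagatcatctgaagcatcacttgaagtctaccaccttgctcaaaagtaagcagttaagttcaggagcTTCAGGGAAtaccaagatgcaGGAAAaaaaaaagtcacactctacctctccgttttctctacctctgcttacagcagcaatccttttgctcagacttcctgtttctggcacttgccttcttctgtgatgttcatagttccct
Il2rg: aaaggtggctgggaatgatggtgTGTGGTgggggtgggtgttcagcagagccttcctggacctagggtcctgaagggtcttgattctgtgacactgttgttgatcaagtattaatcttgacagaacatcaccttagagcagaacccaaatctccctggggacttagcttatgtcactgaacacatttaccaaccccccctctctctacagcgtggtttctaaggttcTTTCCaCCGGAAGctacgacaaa
The motifs were the NFAT core GGAAA, AP-1 TGANTCA, STAT TTCNNNGAA, FOXO GTAAACA, an ETS motif CCGGAAG and RUNX TGTGGT. The NFAT core occurred in 55.6% of 32851 promoter windows of the same length, so a match to it is common. The Il2 window held it at bases 137 to 133 and, on the other strand, 47 to 43 before the start. The Il7r window held the STAT motif at bases 142 to 134, a motif of 7.02% of windows that reads the same on both strands, and the NFAT core at bases 121 to 117. The Il2rg window held the ETS motif, found in 6.91% of windows, at bases 17 to 11, the NFAT core on the other strand at bases 23 to 19, and the RUNX motif, found in 14.0% of windows, at bases 227 to 222. No 2 of these matches overlapped, apart from the STAT motif with itself. A match describes letters, and no binding was measured.

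Il2 encodes interleukin 2, the T cell growth factor. In T-like barcodes its level was 43.1 CPM (36.4 to 50.6) for C1, 17.9 (16.0 to 19.8) for C2, 8.72 (8.02 to 9.47) for C3 and 1.76 (1.28 to 2.36) for C4. The 4 intervals did not overlap, and the order C1, C2, C3, C4 was the same under every alternative that changed barcodes, clusters or averaging. The highest level was 24.5-fold the lowest. Few barcodes carried the transcript: 8.62%, 3.95%, 2.70% and 0.786% of T-like barcodes in C1 to C4. Of B-like barcodes, a class that should lack it, 1 of 61 carried it in C1, 0.147% in C3 and 0.107% in C4. Among NK-like barcodes of C1 it was found in 17 of 1409. After each barcode was thinned to 2000 UMIs the T-like shares were 3.41%, 1.95%, 1.21% and 0.214%. In C3 the median T-like barcode held 8229 UMIs and the median B-like barcode 5207, and in C4 they held 6060 and 3924.

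Free RNA, read from barcodes with 50 to under 200 UMIs, had 9.70 CPM of Il2 in C3 from only 3 UMIs, and at most 0.852 CPM in the other libraries. A handful of barcodes held much of the Il2. In C1 1 CD8 effector-like barcode carried 61 of the 147 T-like UMIs, in C2 1 barcode carried 113 of 346, and in C3 1 carried 63 of 567. That C2 barcode lies in none of the T subsets, so the subset levels below leave it out. Without the barcode of most UMIs the T-like levels were 25.2 CPM for C1, 12.0 for C2, 7.76 for C3 and 1.60 for C4, in the same order. With a class given to each barcode by its own marker UMIs the C1 level was 18.5 CPM, and with each library clustered alone the C2 level was 10.2 CPM.

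The subsets with most Il2 differed by library. CD4 follicular helper-like barcodes, T cells that help B cells, had 68.8 CPM (61.7 to 76.6) in C3 and 22.7 (12.7 to 37.4) in C4, and 98 of 771 and 11 of 103 of them carried a UMI. In C3 this subset was 10.2% of T-like barcodes and held 339 of the 567 T-like Il2 UMIs; with a class per barcode its level was 24.3 CPM. The 32 follicular helper-like barcodes of C2 are below the minimum and held 44 UMIs in 10 barcodes. CD4 barcodes of cluster 10 had 26.7 CPM (18.6 to 37.1) for C1 and 72.8 (58.6 to 89.4) for C2. Unassigned barcodes of that cluster had 48.5 (31.7 to 71.0) and 57.3 (37.1 to 84.6). CD8 effector-like barcodes had 71.8 CPM for C1, 5.67 for C2 and 5.22 for C3, but the C1 value was 14.98 CPM without its top barcode.

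Other T subsets had lower levels than the follicular helper-like and cluster 10 barcodes, and some held none. CD4 effector-like barcodes of C3 had 11.2 CPM (5.57 to 19.96) from 11 UMIs and those of C2 0.584 from 1 UMI. Cycling T-like barcodes of C3 had 3.43 CPM (2.03 to 5.42). The 450 CD8 checkpoint-like barcodes of C2, which carry inhibitory receptor genes such as Pdcd1 and Lag3, held 0 UMIs. A count of 3 would be 0.874 CPM there. The 1415 CD4 naive-like barcodes of C4 also held 0, where 3 counts would be 0.352 CPM. The 198 of C3 held 4 UMIs, or 4.37 CPM (1.19 to 11.2). CD8 barcodes of cluster 0 had 0.204 CPM (0.0880 to 0.402) in C3. Regulatory-like barcodes, marked by Foxp3, held 0 UMIs in C2 and C3 and 2 in C4. Macrophage-like barcodes had 1.16 CPM in C1 and 7.14 in C2, where 26 of the 32 UMIs lay in 1 barcode, and 1.35 CPM without it.

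**Figure D1:**
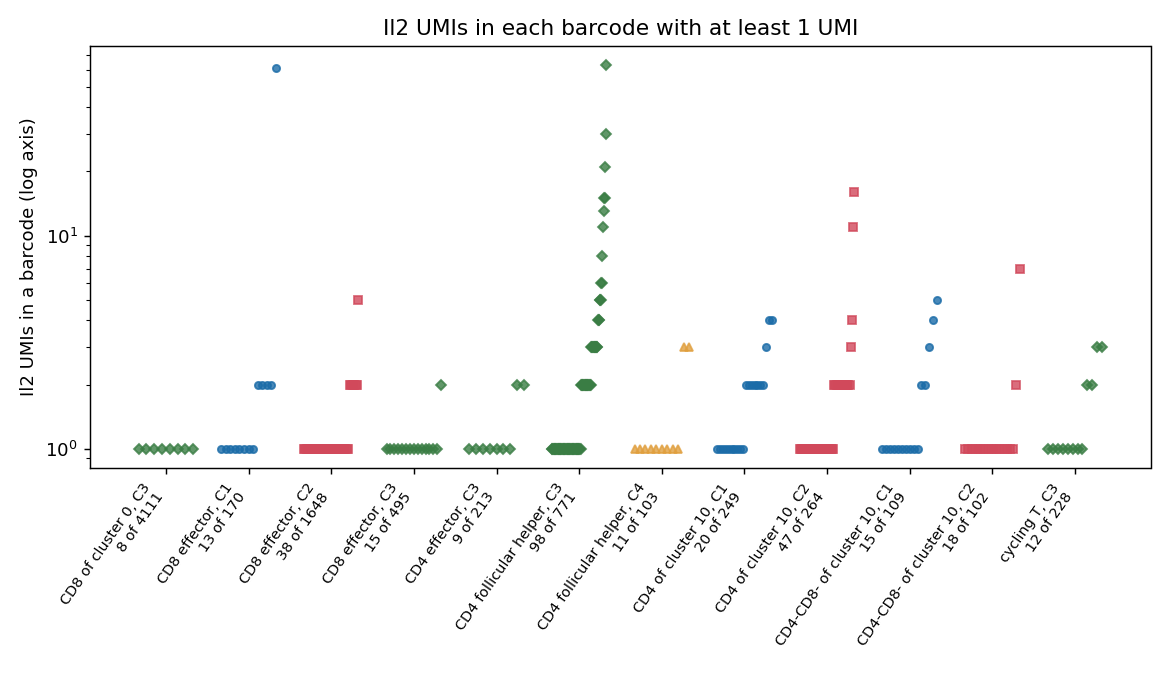
Each point is a barcode with at least 1 Il2 UMI, its UMIs on a log axis, grouped by T subset and library with the number of such barcodes out of all barcodes of the group. The highest points drawn are 63 UMIs in a CD4 follicular helper-like barcode of C3 and 61 in a CD8 effector-like barcode of C1. Groups with fewer than 5 such barcodes or fewer than 50 barcodes are not drawn. Barcodes in none of the T subsets are not drawn either, among them the C2 barcode with 113 UMIs.

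Il15 encodes interleukin 15, which sustains NK cells and memory CD8 T cells, and its UMIs lay mostly in myeloid classes where those were numerous. Macrophage-like barcodes had 22.6 CPM (20.5 to 24.9) in C1 and 16.5 (12.96 to 20.7) in C2. Monocyte-like barcodes had 21.7 (13.6 to 32.9) for C1, 22.3 (14.8 to 32.3) for C2 and 23.4 (15.9 to 33.3) for C3, and these 3 intervals overlapped. The macrophage-like class held 69.0% of the Il15 UMIs of C1 against 46.1% of all UMIs there, and 40.2% against 14.2% in C2. The monocyte-like values rested on 22 to 31 UMIs and moved with the setting: C3 rose to 37.3 CPM with at least 1000 UMIs per barcode, C1 to 32.9 with each library clustered alone, and C2 fell to 12.4 with a class per barcode. The likeness of the 3 libraries therefore depends on the setting.

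The dendritic-like barcodes, led by Fscn1 and Ccl22, were too few for the minimum but held much of the Il15 of the lymphocyte-rich libraries. The 22 of C3 had 136 CPM (88.0 to 201) from 25 UMIs and held 20.3% of the Il15 UMIs of that library with 0.247% of its UMIs. The same barcodes had 174 CPM of Il15ra (119 to 246), and 6 of the 22 carried UMIs of both genes. In T-like barcodes Il15 was low, at 4.69, 1.70, 0.754 and 0.279 CPM in C1 to C4. NK-like barcodes had 6.12 CPM (4.72 to 7.82) in C1 and 6.86 (4.30 to 10.4) in C2. Free RNA had 4.80 CPM in C1 and 2.07 in C2, above the T-like levels of these libraries.

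Il15ra encodes the high-affinity chain that presents interleukin 15. Its T-like level was 11.7 CPM (8.37 to 16.0) for C1, 27.4 (25.1 to 29.8) for C2, 16.8 (15.8 to 17.8) for C3 and 6.11 (5.18 to 7.15) for C4. C2 was highest and C4 lowest, and C1 and C3 overlapped. C2 was also above C1 in other classes, where NK-like barcodes had 12.7 CPM in C1 and 24.6 in C2, and macrophage-like barcodes 7.46 in C1 and 21.6 in C2. Within C3, effector T-like barcodes had 3.25-fold the level of naive T-like barcodes. The latter include 129 barcodes of cluster 17, led among T-like clusters by Ifit3 and Ifit3b. CD4 effector-like barcodes of C3 had 52.7 CPM (39.4 to 69.1), CD8 effector-like barcodes 31.3 (25.4 to 38.2) and CD8 naive-like barcodes 11.5 (8.76 to 14.8). In macrophage-like barcodes 4.84% carried an Il15ra UMI in C1 and 18.2% in C2, and 1.17% and 3.90% carried both Il15 and Il15ra. These shares were not thinned to a common depth, and the part of depth in them was not tested.

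Il2rb encodes the signalling chain that interleukin 2 and interleukin 15 share. NK-like barcodes had 1380 CPM (1357 to 1402) in C1 and 1522 (1479 to 1565) in C2. These were 4.39-fold and 2.54-fold the T-like levels of the same libraries. T-like barcodes had 314 CPM (296 to 334) for C1, 599 (588 to 610) for C2, 345 (341 to 350) for C3 and 126 (122 to 131) for C4. C2 was highest and C4 lowest, and no 2 intervals overlapped, but C1 passed C3 with a class per barcode. The NK-like barcodes of C1, in a cluster led by Gzmc and Ncr1, also carried the 5 T cell marker genes at a summed 533 CPM, against 3802 in T-like barcodes.

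Among T subsets Il2rb was lowest in naive CD4 cells and highest in the checkpoint-like CD8 cells. CD4 naive-like barcodes had 40.4 CPM (28.5 to 55.7) in C3 and 17.6 (14.9 to 20.6) in C4, the first rising to 93.6 with a class per barcode. Free RNA had more, at 168 CPM in C3 and 70.0 in C4. The free RNA pools of C3 and C4 held only 309308 and 85736 UMIs of all genes, and their CPM carry no interval here. CD8 naive-like barcodes had 285 (270 to 300) and 115 (107 to 124), above the CD4 naive-like level in each library. The CD8 naive-like barcodes of C3 also had 3147 CPM of Ccl5, a chemokine of antigen-experienced T cells, against 170 in C4. The CD8 barcodes of cluster 0 had 396 CPM in C3 and 482 in C4. The CD8 checkpoint-like barcodes of C2 had 1307 CPM (1269 to 1345) and the CD8 effector-like barcodes of that library 411. A class per barcode put the CD8 naive-like value of C4 at 182 CPM.

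Regulatory-like barcodes had 702 CPM of Il2rb (630 to 780) for C2, 432 (366 to 506) for C3 and 452 (417 to 489) for C4, of which the last 2 overlapped; the C3 value was 282 with a class per barcode. B-like barcodes had 26.6 CPM for C1, 12.1 for C3 and 2.83 for C4, and macrophage-like barcodes 14.1 in C1 and 76.3 in C2. These low levels moved with the choice of barcodes: the macrophage-like value of C1 ran from 5.33 CPM without the 5% of barcodes of highest doublet score to 76.4 with at least 1000 UMIs, and the B-like value of C3 reached 34.3 with at most 5% mitochondrial UMIs. The summed level of the 5 NK marker genes in macrophage-like barcodes was 17.3 CPM in C1 and 37.0 in C2, and of the 5 T marker genes 119 and 506; their part in the Il2rb values was not tested.

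Il7r encodes the interleukin 7 receptor alpha chain, which also serves the receptor of thymic stromal lymphopoietin. T-like barcodes had 403 CPM (382 to 425) for C1, 141 (136 to 146) for C2, 525 (519 to 531) for C3 and 391 (384 to 399) for C4. C3 was highest and C2 lowest under each alternative that changed barcodes, clusters or averaging, while the order of C1 and C4 depended on the setting and their intervals overlapped. With at most 5% mitochondrial UMIs the C1 level was 245 CPM and the C2 level 84.0. At 2000 UMIs per barcode 38.3%, 14.97%, 56.2% and 45.7% of T-like barcodes of C1 to C4 carried a UMI, and 1.49% of B-like barcodes in C3 and 0.218% in C4; without thinning the T-like shares were 58.4%, 22.4%, 79.4% and 69.7%.

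The checkpoint-like CD8 barcodes of C2 stood at the low end for Il7r. They had 4.08 CPM (2.23 to 6.84), from 14 UMIs in 450 barcodes, below the 16.1 CPM of free RNA in that library, against 138 (130 to 146) in CD8 effector-like barcodes, the latter 83.1 with a class per barcode. Cycling T-like barcodes of C2 had 16.4 CPM and CD4 effector-like barcodes of C2 32.7 (24.7 to 42.5), the last falling to 19.4 with at least 1000 UMIs and 8.86 with a class per barcode. The subsets of the same name in C3 were higher, at 460 CPM in CD8 effector-like, 173 in CD4 effector-like and 115 in cycling T-like barcodes. The effector-like barcodes of C2 lay mostly in cluster 2 and those of C3 mostly in cluster 8, so different clusters hold this name in the 2 libraries. Against T-like clusters of other states, cluster 2 was led by Scgb1b27, Mucl2, Scgb2b27 and Gzmb, and cluster 8 by Gzmk, Esm1 and Lmo1.

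High Il7r was found in several kinds of T cell. CD8 barcodes of cluster 0 had 646 CPM (638 to 654) in C3 and 540 (506 to 576) in C4, above CD8 naive-like barcodes with 502 and 390. Unassigned barcodes of cluster 10 had 832 (756 to 912) in C1 and 711 (634 to 794) in C2. Their markers differed between C1 and C2, with Trdc at 78.3 and 0 CPM and Il17a at 2321 and 477. The 44 innate lymphoid-like barcodes of C1, marked by Il1rl1 and Areg and below the minimum, had 909 CPM (796 to 1033). Regulatory-like barcodes, which are known for little of this chain, had 199 CPM for C2, 338 for C3 and 191 for C4, against 398 and 393 in CD4 naive-like barcodes of C3 and C4.

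NK-like barcodes had 23.9 CPM of Il7r (21.0 to 27.1) in C1 and 24.9 (19.8 to 31.0) in C2, which was 16.8-fold and 5.65-fold below the T-like level. The C1 value was 2.76 CPM with each library clustered alone, and the C2 value 10.9 without the highest doublet scores. B-like barcodes had 2.96 CPM for C1, 16.0 for C3 and 3.06 for C4, and the C3 and C4 values rose to 53.9 and 27.2 with at most 5% mitochondrial UMIs. Free RNA of C3 and C4 had 230 and 210 CPM of Il7r, and its part in the B-like values was not tested. Macrophage-like barcodes had 72.4 CPM (68.5 to 76.4) in C1 and 36.1 (30.8 to 42.1) in C2. The C1 value was alike in cluster 4, with 71.7 CPM, and in cluster 9, with 77.2.

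On Il7r and Il2rb together some subsets lay far apart and others close. NK-like and checkpoint-like barcodes lay at high Il2rb and low Il7r, CD4 naive-like barcodes at low Il2rb and high Il7r, and the CD8 barcodes of cluster 0 were high for both. In C2 the CD4 and the unassigned barcodes of cluster 10 lay close. At 2000 UMIs per barcode 50.2% and 51.1% of them carried Il7r, and 41.9% and 38.0% carried Il2rb. Within single barcodes thinned to 2000 UMIs, 36.6% of CD8 barcodes of cluster 0 in C3 carried UMIs of both genes, 0.676% of checkpoint-like barcodes in C2 did, and 0.855% of CD4 naive-like barcodes in C4 did. Inside cluster 0 of C3 the genes did not exclude each other: Il2rb was found in 53.8% of CD8 barcodes with Il7r and in 56.6% of those without. In CD8 effector-like barcodes of C2 these shares were 41.3% and 53.4%. These shares count detection at one depth and say nothing of cells below it.

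**Figure D2:**
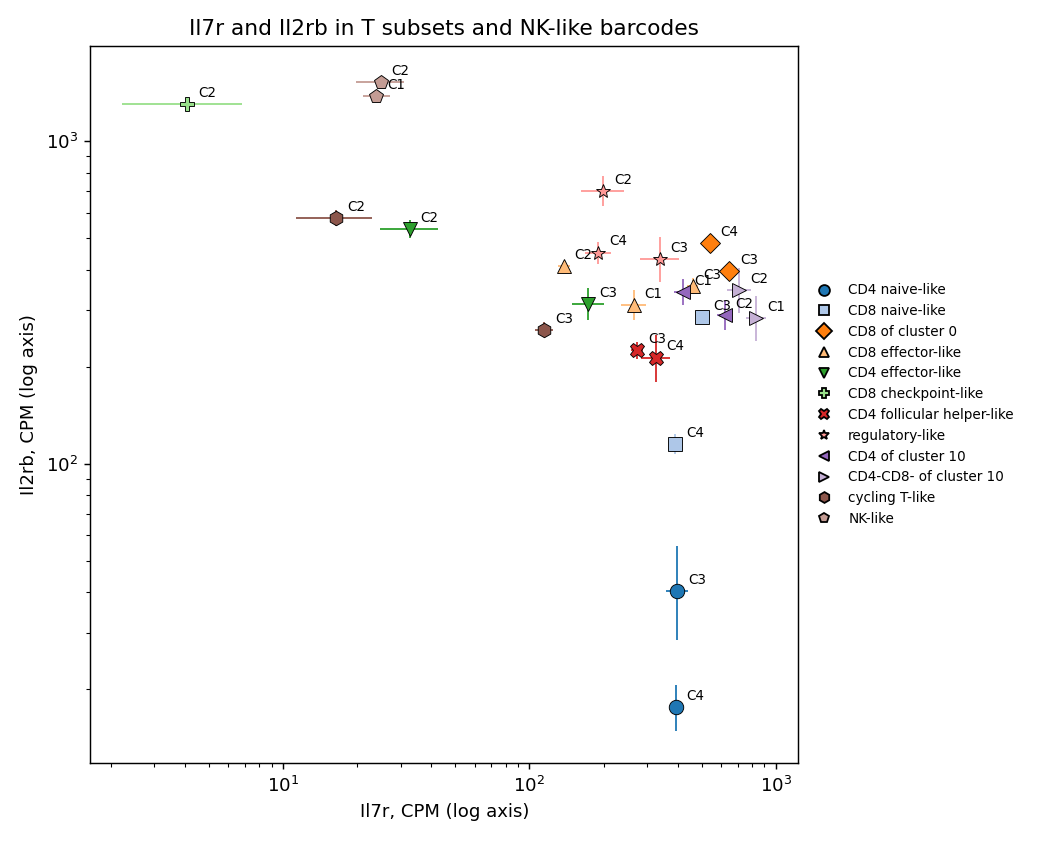
Each symbol is a T subset or the NK-like class in 1 library, with Il7r CPM on the horizontal and Il2rb CPM on the vertical log axis and bars for exact Poisson 95% intervals. Checkpoint-like barcodes of C2 lie at 4.08 and 1307 CPM, CD4 naive-like barcodes of C4 at 393 and 17.6, and CD8 barcodes of cluster 0 in C3 at 646 and 396.

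Il2rg encodes the shared chain itself, and of the 8 members its T-like level varied least between libraries. T-like barcodes had 666 CPM (639 to 694) for C1, 584 (573 to 595) for C2, 606 (600 to 612) for C3 and 609 (599 to 619) for C4. The highest was 1.14-fold the lowest, and the order of libraries changed with the setting. NK-like barcodes had 711 CPM in C1 and 802 in C2, and B-like barcodes 450 for C1, 345 for C3 and 410 for C4. Within T-like barcodes regulatory-like cells had 934 CPM (850 to 1023) for C2, 821 (729 to 921) for C3 and 713 (669 to 759) for C4, the highest T subset in C2, C3 and C4 among those with at least 50 barcodes, though its interval overlapped that of CD4 naive-like barcodes in C3 and of follicular helper-like barcodes in C4. Cycling T-like barcodes were lowest in C2 with 433 CPM and in C3 with 448.

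Myeloid barcodes had less Il2rg and differed between libraries. Macrophage-like barcodes had 87.2 CPM (83.0 to 91.6) in C1 and 299 (283 to 315) in C2. Within cluster 9 alone the values were 122 in C1 and 310 in C2, so the libraries also differed inside a cluster. Monocyte-like barcodes had 173 (148 to 200) for C1, 345 (314 to 379) for C2 and 556 (517 to 598) for C3, with no overlap of intervals, but the first 2 rose to 437 and 535 with a class per barcode.

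Il4ra encodes the chain that binds interleukin 4 and, with another partner, interleukin 13. T-like barcodes had 56.3 CPM (48.6 to 64.8) for C1, 15.5 (13.8 to 17.4) for C2, 56.6 (54.8 to 58.4) for C3 and 73.5 (70.2 to 77.0) for C4. C2 was lowest and C4 highest, and C1 and C3 overlapped. In C3 naive T-like barcodes had 3.40-fold the level of effector T-like barcodes. CD4 naive-like barcodes had 76.5 CPM in C3 and 87.0 in C4, CD8 naive-like barcodes 69.3 and 57.3, and the CD8 barcodes of cluster 0 70.4 and 94.6. CD8 effector-like barcodes had 18.3 in C2 and 19.2 in C3, follicular helper-like barcodes 17.5 in C3 and 22.7 in C4, and checkpoint-like barcodes of C2 7.87 (5.18 to 11.4). With a class per barcode the CD8 effector-like value of C3 rose to 49.4 CPM and the checkpoint-like value to 12.3.

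The other classes of C2 did not all have less Il4ra than those of C1: NK-like barcodes did and macrophage-like barcodes did not. NK-like barcodes had 77.0 CPM in C1 and 60.8 (52.6 to 69.9) in C2, and macrophage-like barcodes 61.0 for C1 and 88.6 (80.1 to 97.7) for C2. B-like barcodes had 88.7 CPM (59.9 to 127) for C1, 78.6 (71.5 to 86.2) for C3 and 99.7 (93.1 to 107) for C4. In regulatory-like barcodes the levels were 30.4 CPM (17.0 to 50.2) for C2, 22.7 (9.81 to 44.8) for C3 and 79.1 (65.0 to 95.4) for C4, with C4 above the others.

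Il21r encodes the receptor for interleukin 21, a product of helper T cells that acts on B cells, NK cells and CD8 T cells. It was found in T-like, NK-like, B-like, macrophage-like and monocyte-like barcodes. Its T-like level had a narrow range between libraries: 165 CPM (151 to 179) for C1, 173 (167 to 179) for C2, 119 (116 to 122) for C3 and 145 (140 to 150) for C4. C3 was lowest, and C1 and C2 overlapped. NK-like barcodes had 254 (245 to 264) for C1 and 203 (188 to 219) for C2, and B-like barcodes 133 (97.1 to 178) for C1, 192 (181 to 204) for C3 and 190 (181 to 200) for C4. Checkpoint-like barcodes of C2 had 242 CPM (226 to 259) and CD8 effector-like barcodes of C2 156 (148 to 165). Macrophage-like barcodes had 135 in C1 and 156 in C2, and monocyte-like barcodes 37.5, 70.2 and 47.6 in C1 to C3. Free RNA of C3 had 93.8 CPM of Il21r, above the monocyte-like level there. With a class per barcode the monocyte-like values of C1 and C2 were 137 and 123 CPM, but that of C2 was 27.1 with each library clustered alone and 22.3 without the 5% highest doublet scores.

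**Figure D3:**
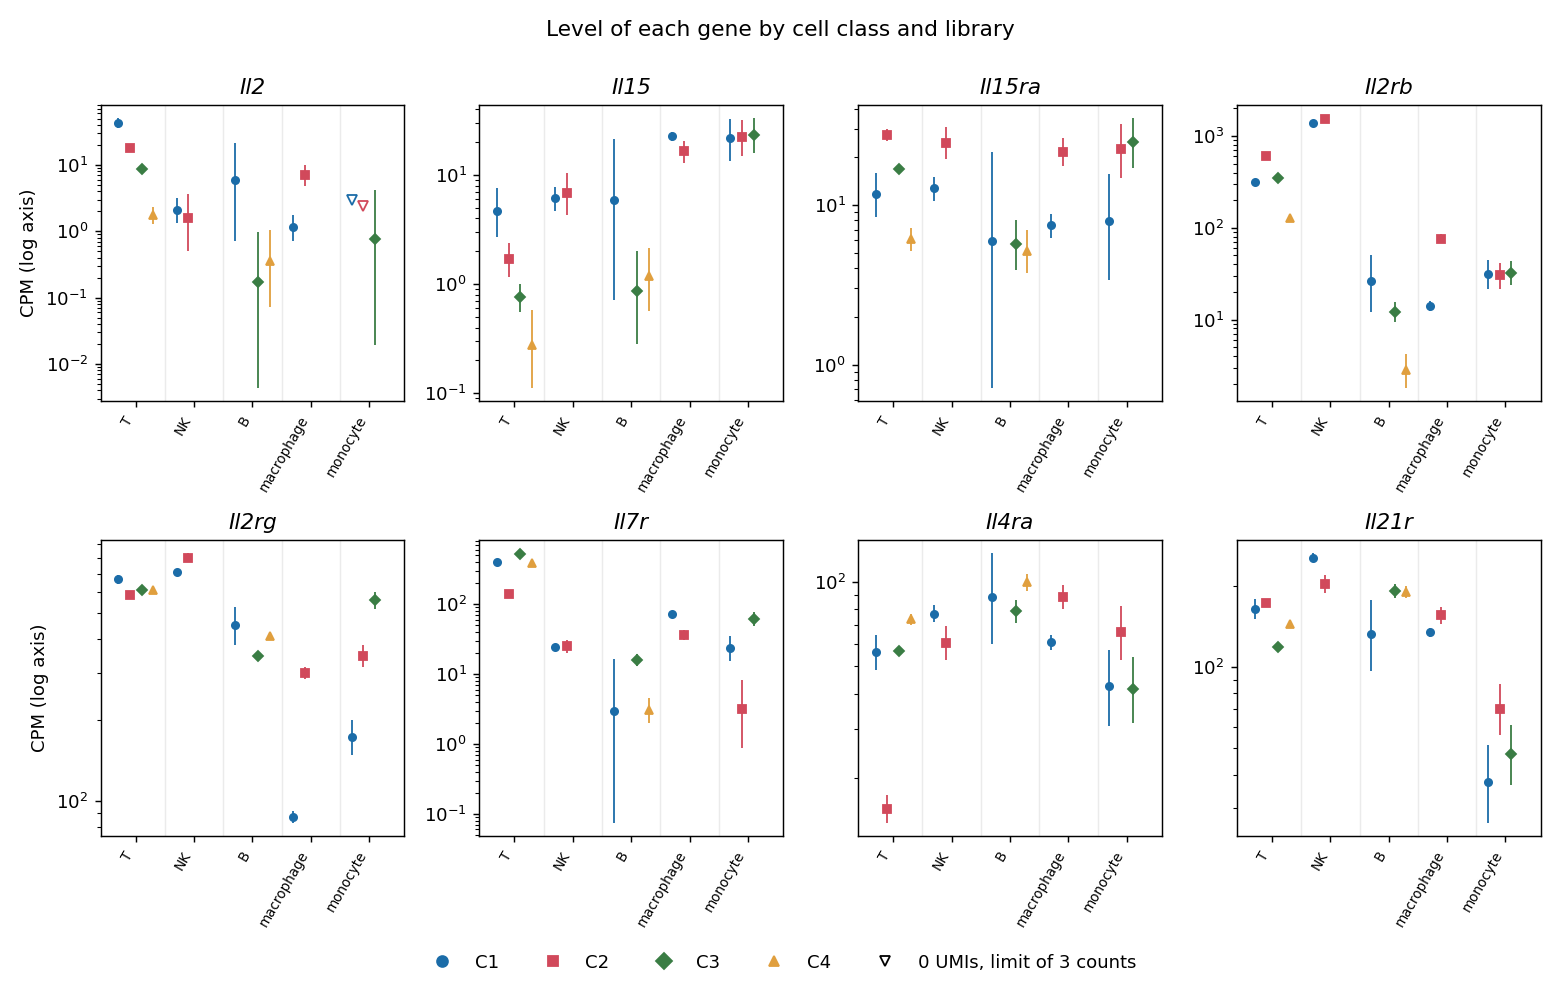
CPM of each gene on a log axis in T-like, NK-like, B-like, macrophage-like and monocyte-like barcodes, with 1 symbol per library of at least 50 barcodes and bars for exact Poisson 95% intervals; open triangles mark 0 UMIs at the limit that 3 counts give. Il2rb was highest in NK-like barcodes, Il15 was near 22 CPM in monocyte-like barcodes of C1 to C3, and Il2rg in T-like barcodes ran from 584 to 666 CPM.

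**Figure D4:**
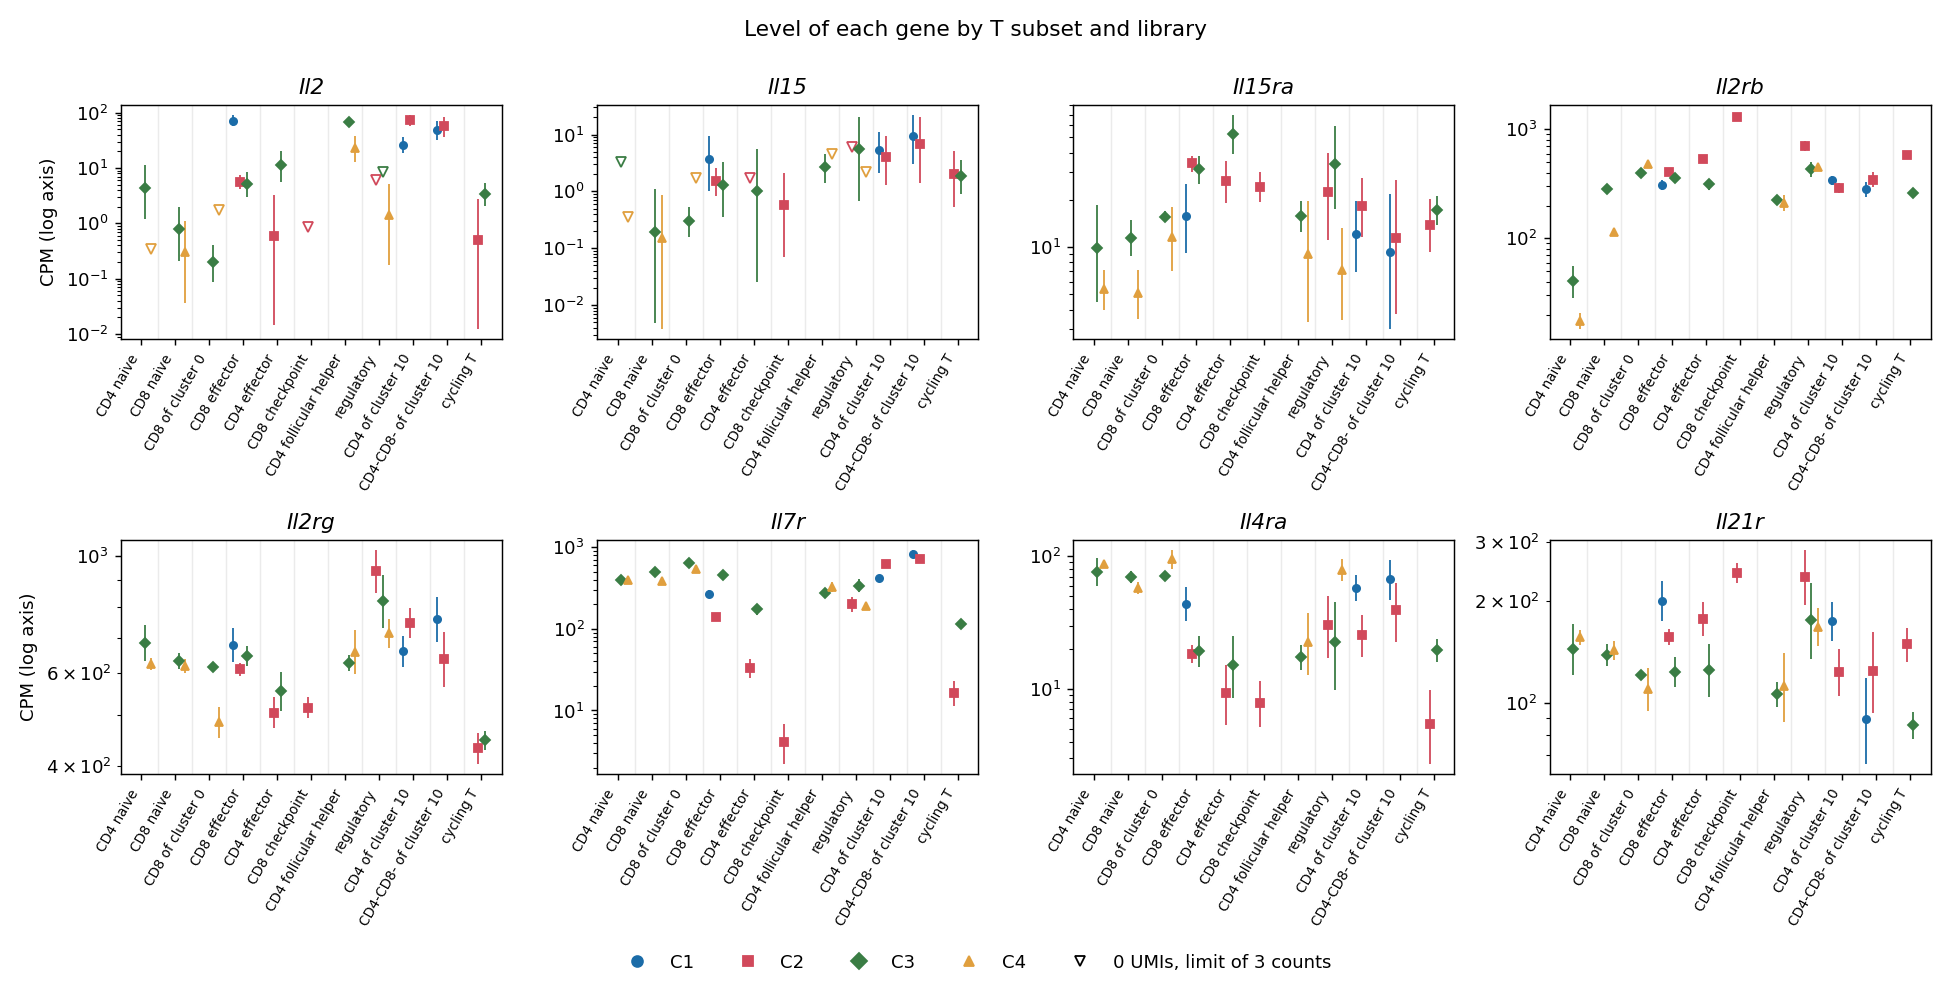
CPM of each gene on a log axis in 11 T subsets, with symbols, bars and triangles as in the plot by class. Il7r ran from 4.08 CPM in CD8 checkpoint-like barcodes of C2 to 832 in unassigned barcodes of cluster 10 in C1, labelled CD4-CD8-. Il2rg stayed between 433 and 934 CPM.

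Counted over the set, a member was called higher or lower where the ratio of 2 levels passed 2-fold and the gene had at least 50 UMIs in both classes together; this is a rule of size and no test. NK-like against T-like barcodes gave 1 higher member of 8 in C1, Il2rb, where 8.44% of all genes tested were higher, and 2 lower, Il2 and Il7r, where 6.81% were lower. In C2 it gave 3 higher, Il15, Il2rb and Il4ra, beside 6.89% of all genes, and 2 lower, Il2 and Il7r, beside 10.5%. The median log2 ratio of the members was 0.25 in C1 and 0.35 in C2, and that of all genes 0.08 and 0.01.

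Macrophage-like against T-like barcodes gave 1 higher member in C1, Il15, beside 18.6% of all genes, and 4 lower, Il2, Il2rb, Il2rg and Il7r, beside 20.6%. In C2 it gave 2 higher, Il15 and Il4ra, beside 14.6%, and 3 lower, Il2, Il2rb and Il7r, beside 21.0%. The median log2 ratio of the members was -1.56 in C1 and -0.65 in C2, and that of all genes -0.32 and -0.35. Il15 was 4.82-fold higher in C1 and 9.69-fold higher in C2, and Il4ra 5.70-fold higher in C2.

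B-like against T-like barcodes gave no higher member in any library, beside 6.79% of all genes in C1, 14.6% in C3 and 13.8% in C4. Lower members were 3 of 6 tested in C1, Il2, Il2rb and Il7r, beside 18.9%, 4 of 8 in C3, with Il15ra added, beside 14.9%, and 2 of 6 in C4, Il2rb and Il7r, beside 12.1%. The median log2 ratio of the members tested was -1.72, -1.18 and -0.40, and that of all genes -0.20, 0.10 and 0.10. Il7r was 32.9-fold lower in C3 and 128-fold lower in C4, with a B-like level that moved with the choice of barcodes, and rested on 1 B-like UMI in C1.

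Effector T-like against naive T-like barcodes could be compared in C3 alone. There 1 of 6 tested members was higher, Il15ra, beside 7.04% of all genes, and 1 was lower, Il4ra, beside 2.55%. The median log2 ratio was -0.08 for the members and 0.21 for all genes. With a class per barcode neither member passed, and Il2rb joined Il15ra with at least 1000 UMIs, with at most 5% mitochondrial UMIs and without the highest doublet scores.

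Between the highest and lowest library, T-like levels of 6 of the 8 members differed by over 2-fold, all but Il2rg and Il21r, beside 37.6% of all genes tested. The median log2 ratio was 2.20 for the members and 0.74 for all genes. The Il15 ratio sets C1, with 4.69 CPM against 4.80 in free RNA, over C4, with 7 UMIs. For Il2, 1 barcode held 61 of the 147 T-like UMIs of C1. These libraries differ in which T subsets they hold, as given above.

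The other genes of the pathway were read from 5 lists. The share of all genes tested that passed 2-fold between libraries in T-like barcodes was 37.6%, as given above, and counts of so few genes are a description beside it. Of the ligands, Il4, Il7, Il13 and Il21 passed 2-fold between libraries in T-like barcodes, 4 of 4 tested of 5 listed, with Il13, a type 2 cytokine, at 15.2 CPM in C1 and 0.568, 0.138 and 0.0798 in C2 to C4. Of the receptor chains 3 of 3 tested passed, of 4 listed. Il2ra, the high-affinity chain of the interleukin 2 receptor, had 52.2 CPM for C1, 3.20 for C2, 2.32 for C3 and 38.2 for C4, and Crlf2, which pairs with Il7r, had 97.9, 133, 61.7 and 56.5. Of 6 kinases and STATs 2 passed, a share close to that of all genes: Jak3, the kinase bound to the shared chain, with 56.5, 106, 79.5 and 47.4 CPM, and Stat3, which follows interleukin 21, with 132, 210, 93.3 and 94.9.

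Of 6 feedback and survival targets 4 passed, beside the same 37.6% of all genes. Cish, a feedback inhibitor that STAT5 induces, had 343 CPM for C1, 107 for C2, 6.40 for C3 and 22.9 for C4, and Socs2, a related inhibitor, 60.1, 4.33, 0.939 and 7.46. Both were highest in C1 and lowest in C3. Of 6 transcription factors that act on Il7r or Il2rb 5 passed, again beside 37.6%. Tbx21, the T-bet factor, had 107, 67.4, 56.6 and 10.5 CPM, highest in C1. Eomes, its relative, had 38.1, 222, 128 and 32.8, highest in C2 as Il2rb was. A link of either factor to Il2rb was not tested.

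Il2ra is named again because it completes the receptor that Il2rb and Il2rg form; its class values were chosen after they were seen. Regulatory-like barcodes, which are known to carry this chain, had 42.6 CPM (26.4 to 65.2) for C2, 45.5 (26.0 to 73.8) for C3 and 509 (473 to 548) for C4. The C4 level was far above the others, while the Foxp3 level was alike, at 491, 528 and 512 CPM. Unassigned barcodes of cluster 10 had 158 CPM (127 to 196) in C1 and 0 UMIs in C2. Macrophage-like barcodes had 205 CPM (199 to 212) in C1 and 97.9 (89.0 to 108) in C2.

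The genes whose levels followed each member most closely were found by Pearson's r on log2(CPM + 10) over 34 sums of a class or T subset in a library, among 6374 genes. The sums share libraries and depth, so r is a description. Il7r was most like Tcf7 (r = 0.88), a factor of naive and memory T cells, then Thada and Klk8. Il2rb was most like Cst7 (0.91), an inhibitor of cathepsins in cytotoxic cells, then Sla2 and Sytl2. Il2 was most like Nebl (0.81), then Krt83 and Tnfsf11, which encodes RANK ligand. Il15 was most like Dnase1l1 (0.94), then Cep170 and Hk2, and Il15ra most like Tapbpl (0.80), B2m and Psmb10, all 3 genes of antigen presentation on class I molecules. Il2rg was most like Spint2 (0.88), Shisa5 and Mppe1, Il4ra most like Pag1 (0.81), Filip1l and Washc4, and Il21r most like Rhoh (0.77), Mob4 and Zbtb38. Between members the highest r was 0.56 for Il2rb and Il2rg and the lowest -0.65 for Il15 and Il2rg.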

How the data were processed

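The authors deposited whole-number UMI counts per gene and barcode, not normalized and not restricted to cells. Cell Ranger 4 is named per the file headers; the submitters' processing notes list the mm10 build, STAR 2.7.10a and, as version, Cell Ranger 6.1.2. Per the labels' protocols the kit was BD Rhapsody, but the series design gives 10x, so the chemistry is not settled. The 4 libraries held 48439860, 44798843, 77819179 and 37902916 UMIs in C1 to C4.

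Kept barcodes were scaled to 10000 UMIs and log-transformed. The 4 libraries were clustered together on 2000 variable genes, leaving out the members and 27 pathway genes, with 30 principal components, 15 neighbours and Leiden at resolution 1 (scanpy 1.11.5, leidenalg 0.10.2, Python 3.11.15, scipy 1.17.1). This gave 27 clusters, 11 of them T-like; 5 got no name, 2 of those for markers of a second class. A class needed 3 markers found in at least 10% of barcodes and a scaled score of 0.5; these naming steps were set after clusters were seen. No doublets were removed: Scrublet marked 166 barcodes of C1 and 116 of C4 but 0 of C2 and 2 of C3, where it failed.

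UMIs were summed per class and library as CPM. With 1 library per group and no library tied to a group there was no test. The fold script was tested on simulated data. Genes named were the 8 members, the 3 genes most like each, and in 5 pathway lists the 2 of largest ratio between libraries with at least 50 UMIs in the highest; Il2ra by class, marker genes and leading genes were added after values were seen. The members and lists were chosen with earlier results of these data known. In total 12 alternatives were run.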

Additional observations from a re-analysis of the deposited data

Results flagged for a closer look

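In C2 an unnamed cluster of 551 barcodes, used in no comparison, held 3 of the receptor genes above 4.10 CPM, the level of 3 counts there. Each was also above every whole named class of at least 50 barcodes in that library. Il15ra was at 62.9 CPM (46.1 to 83.9) against 27.4 in T-like barcodes. Il21r was at 416 CPM (370 to 465) against 203 in NK-like barcodes. Il7r was at 204 CPM (172 to 239) against 141 in T-like barcodes, but not above every T subset of C2. There unassigned barcodes of cluster 10 had 711 and regulatory-like barcodes 199 (161 to 242). The cluster was led by Gm43065, Ttn, Mpp7 and Gm26917. Its barcodes were shallow, with a median of 1172 UMIs against 4939 over all kept barcodes of C2, a median of 5.75% mitochondrial UMIs against 1.42%, and 47371 CPM of the nuclear RNA Malat1 against 7927; the part of these in the values was not tested.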

How the results depend on the processing

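No paired analysis was possible because no library is tied to a sample, each group has 1 sample and no result comes from a test. A count of members past 2-fold was taken to move where it changed by over 1.5-fold or went to or from 0. Smaller changes are not listed. Of 17 counts, these moved. Effector over naive T-like in C3 went from 1 higher member to 3 with at least 1000 UMIs, to 2 with at most 5% mitochondrial UMIs, to 2 without the 5% highest doublet scores and to 0 with a class per barcode, which also took the lower count from 1 to 0. NK-like over T-like in C1 went from 1 higher to 2 with at most 5% mitochondrial UMIs and to 2 at Leiden resolution 2, and from 2 lower to 1 with at least 200 UMIs in both classes. B-like over T-like in C1 went from 0 higher to 1 at resolution 2 and to 1 with the mean of single-barcode CPM. Macrophage-like over T-like in C2 went from 2 higher to 1 with at least 200 UMIs. None of the 17 counts moved with each library clustered alone or with a class per barcode beyond those named, though these settings gave only 15 of them. The cause of each move was not tested. Of 1762 values of 187 levels of at least 20 UMIs under alternatives, 1486 lay inside the counting interval of the value as reported and 87, from 41 levels, moved by over 1.5-fold. Keeping the mixed clusters and leaving out the barcode of most UMIs were added after seeing the data. With 1 library per group the spread between mice is unknown, and some Il2 levels rest largely on single barcodes.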

Other observations

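The 44 innate lymphoid-like barcodes of C1, led by Csf2 and Areg, are below the minimum of 50 barcodes. They had 909 CPM of Il7r (796 to 1033), 971 of Il2rg and 361 of Il2ra. The high-affinity interleukin 2 receptor also needs Il2rb. These barcodes held 0.139% of the Il2rb UMIs of C1, with 0.656% of all UMIs of that library. NK-like barcodes held 83.4% of those Il2rb UMIs, so the low share does not mean that Il2rb was absent. The 41 unassigned barcodes of cluster 10 in C4 had 1517 CPM of Il7r and 154 of Il2ra (109 to 212). The 102 of C2 held 0 UMIs of Il2ra, where 3 counts would be 6.88 CPM. The 31 monocyte-like barcodes of C4 had 45.5 CPM of Il15 from 16 UMIs, and 2 of them carried both Il15 and Il15ra.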
